A study of Arabidopsis thaliana with 8 samples.

Results

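The genes described here are heat-induced genes of Arabidopsis thaliana shoots. The families of heat shock proteins and their named helpers were left out, as were some further genes. They were chosen on the measured values themselves. A probe set, the group of short probes that reads 1 transcript on the Affymetrix ATH1 array, was kept when the lowest of the 4 heated signals, plus an offset of 29, was at least 4 times the highest of the 4 control signals plus 29. Of 22746 probe sets other than array controls, 167 met this limit, and 83 of them are listed with 1 gene. Of the 83, 26 were left out by name or locus, mostly small heat shock proteins, HSP70 and HSP90 partners and chloroplast chaperonin. Names starting with UGT, CYP, nad, cox or ccb were left out too, among them nad5. Left out by locus were AT1G71000, AT1G72660, AT5G07330, AT1G21550, AT5G25450 and AT5G10695. Their lowest heated signals were 116, 66.8, 61.4, 47.05, 28.7 and 25.0 times their highest control signals, each plus 29. This left 57 probe sets of 56 genes, out of 13513 probe sets with 1 gene. They lie on all 5 chromosomes, with 14, 6, 7, 12 and 17 genes on chromosomes 1 to 5.

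The study compared Col-0 wild type with GABI-268A08, a line whose Hsa32 gene (AT4G21320) is disrupted by T-DNA and whose product wild-type plants need to keep acquired tolerance of severe heat over time. Seedlings were 15 days old. For 2 h they were held at 22 °C as controls or heated at 37 °C, and the shoots of about 100 plants were pooled for each array. There were 4 groups (wild-type control, wild-type heat, knockout control and knockout heat) with 2 biological replicates each, 8 arrays in all. The knockout is 1 insertion line and no complemented line was among the 8 arrays. The source label of the first wild-type control array speaks of heat, while its title says control, and the title was followed. The members below are grouped by what their proteins do.

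When plant cells meet heat, proteins lose their shape and heat shock factors switch on genes for chaperones, which hold or refold them. Damaged proteins that cannot be refolded are tagged with ubiquitin and taken apart. Heat also makes membranes more fluid, disturbs mitochondria and RNA handling, and raises reactive oxygen, so genes for these processes are part of the wider response.

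All 8 arrays as deposited had nearly the same trimmed mean, between 500.04 and 500.07. Median signals ran from 131 to 181 and highest signals from 21808 to 57211. HSA32 itself read 657 and 230.0 in wild-type controls, 1125 and 1247 in knockout controls, 23175 and 9240.3 in heated wild type, and 378 and 589 in heated knockout. Both heated wild-type arrays were above all others, and both heated knockout arrays were within the range of the wild-type controls. Where its probes lie relative to the insertion was not analysed here. The shoot label was checked against marker genes. Of 16 light-harvesting and Rubisco genes, LHCB4.1, a chlorophyll-binding antenna protein, was the 1 with a probe set of its own, and its signal was between 19949.8 and 40555.6 on every array. The 4 of 12 root markers with a probe set of their own summed to 687 to 1379 per array, and 2 of 12 seed markers to 143 to 214. Most of the root sum came from AT4G28100, which read 572 to 1144.5, above the median signal of every array. EXPA7, EXPA18 and AT5G17820 read 9.3 to 144.5. None of the 11 flower markers had a probe set of its own. With whole shoots, fewer cells of a type and less RNA per cell cannot be told apart.

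The share of probe sets that met the limit was 0.734% of 22746. By the mirrored limit (highest heated signal plus 29 at most 1 in 4 of the lowest control signal plus 29) 13 probe sets, 0.0572%, were lower after heat, 1 of them with 1 gene. The ratio that the limit uses ran from 4.03 to 46.5 among the members, with a median of 7.56. It was 20 or more for 7 members, 10 or more for 19, between 5 and 10 for 31 and under 5 for 7.

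Just inside the limit, AT1G16040 had a ratio of 4.03 on the dimmer of its probe sets, AT5G61510 of 4.10, AT2G32140 of 4.15 and AT5G04840 of 4.35. Just outside it were AT2G27580 at 3.73, PCME at 3.69, AT3G56250 at 3.66 and AT1G55530 at 3.62. AT2G27580 read 518 and 734 in wild-type controls, 1114.5 and 540.0 in knockout controls, 4232 and 6767 in heated wild type, and 6986 and 5524 in heated knockout. It was high on all heated arrays and missed the limit through the first knockout control array. AT1G55530 read 3375 and 982 in wild-type controls, 970.1 and 1177 in knockout controls, 14450.2 and 12277 in heated wild type, and 16324.5 and 16067 in heated knockout. Here the first wild-type control array stood above the other 3 controls, so genes near the limit were kept or lost by single arrays.

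**Figure D1:**
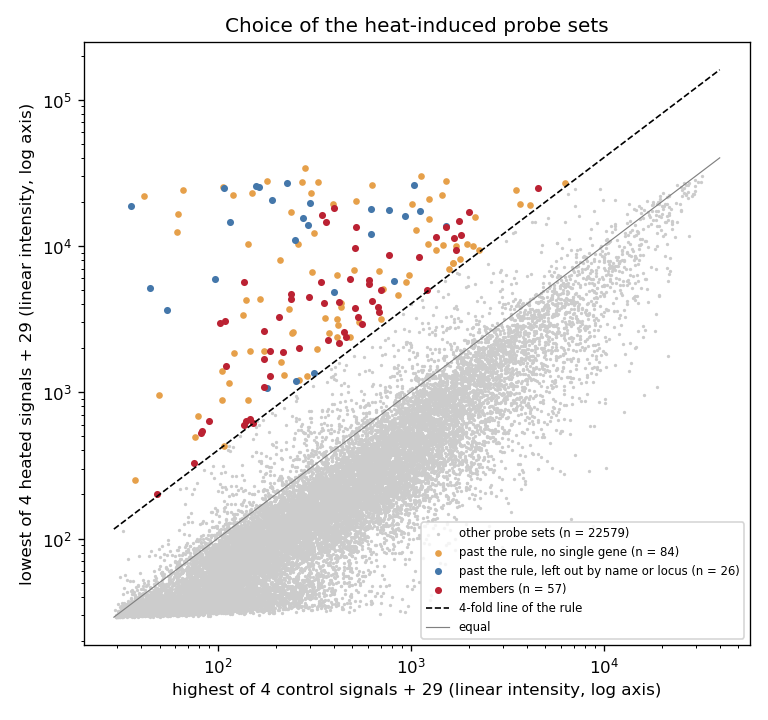
Each point is 1 probe set, with the highest of 4 control signals on the x axis and the lowest of 4 heated signals on the y axis, both plus 29 and on log axes. The 57 members (red) lie, with the 26 left out by name or locus (blue) and the 84 without a single gene (orange), above the line of 4 times. The members reach a ratio of 46.5, the blue points 528 and the orange points 532. Of the members, 23 have a mean control signal under 174, the median over all probe sets.

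The members covered a wide range of levels. Mean control signals ran from 11.9 to 3713.7 with a median of 282, and 23 members lay under 174, the median over all probe sets. Mean heated signals ran from 268 to 32000 with a median of 5281. Every heated signal was at least 1000 for 48 members and at least 10000 for 11 members. That is 19.3% of the members, against 0.954% of all probe sets. At the low end every heated signal of 5 members was under 1000, and for AT2G32140 and AT3G17110 the mean control signal was below the offset of 29. Folds for such low members are compressed by the offset. All fold changes below are differences of log2(signal + 29) between group means of 2 arrays, given with the standard error (SE) of the limma fit over all 8 arrays.

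The median heat fold change on this scale was 3.68 in wild type (2.21 to 6.51) and 4.28 in the knockout (2.56 to 7.48). The median over all 15919 probe sets tested was -0.22 in wild type and -0.26 in the knockout. In the limma fit 1.84% of probe sets were higher after heat in wild type (293) and 3.13% in the knockout (498), while 0.71% (113) and 3.66% (582) were lower, all at a Benjamini-Hochberg adjusted p below 0.05. Since the members were picked on heated against control arrays, their heat fold changes are a description and carry no test.

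**Figure D2:**
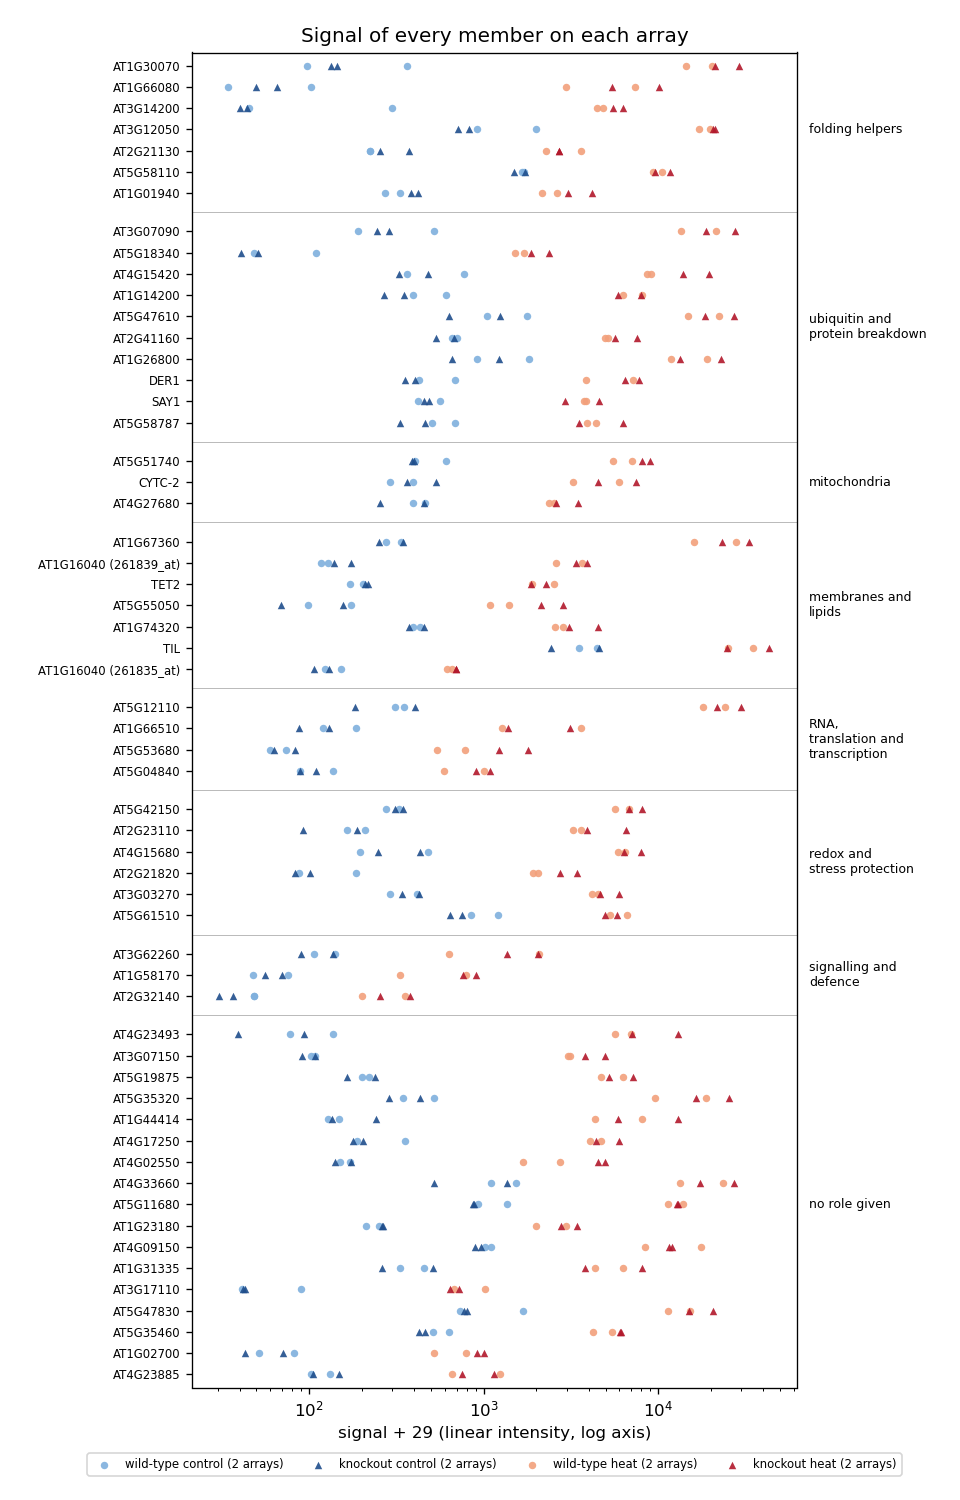
Each row is 1 of the 57 members, grouped by function, and each symbol is 1 array, placed by its signal plus 29 on a log axis (circles: wild type, triangles: knockout; blue: control, orange and red: heat). In every row the 4 heated arrays lie to the right of the 4 controls, while the starting level differs, from a mean control signal of 11.9 to 3713.7.

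Proteins that help folding made up 7 members, with a median heat fold change of 3.76 in wild type and 4.77 in the knockout on the log2 scale. They act with chaperones or on folding itself. In the following sentences each pair of signals gives replicate 1 and then replicate 2. Overlap of the genotypes is given as a description. With 2 arrays a group, a lack of overlap is common even without any difference and carries no test. AT1G30070, a protein with an SGS domain as found in partners of HSP90, read 337 and 67.8 in wild-type controls, 105 and 116 in knockout controls, 14460.4 and 20409 in heated wild type, and 29104 and 21064 in heated knockout. It went from a low level to one of the highest of the array, by 6.51 ± 0.57 (SE, n = 2 arrays a group) in wild type and 7.48 ± 0.57 in the knockout, or 91.5-fold and 178-fold. The first wild-type control array was the highest control, and both heated knockout arrays were above both heated wild-type arrays.

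AT1G66080 belongs to the Hikeshi family, whose human member carries HSP70 into the nucleus. It read 74.1 and 5.5 in wild-type controls, 36.5 and 20.6 in knockout controls, 2937 and 7374 in heated wild type, and 10032.6 and 5438 in heated knockout. Its controls lay near or below the offset, and the genotypes overlapped at both temperatures. The fold change was 6.30 ± 0.62 in wild type and 7.02 ± 0.62 in the knockout.

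AT3G14200, a protein with a J domain, the part of a co-chaperone that stimulates HSP70, read 270.2 and 16.1 in wild-type controls, 15.3 and 11.4 in knockout controls, 4779 and 4448 in heated wild type, and 5498 and 6235 in heated knockout. The first wild-type control array was far above the other 3, which were below the offset. The fold change was 5.32 ± 0.72 in wild type and 7.12 ± 0.72 in the knockout, and the wild-type value rests on controls that differed by 2.73 on the log2 scale, the widest gap between replicates of any member. AT2G20560 and AT4G28480, other genes with a J domain, were left out by the name DNAJ, which the names used here do not give to AT3G14200.

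AT3G12050 is of the AHA1 family, known in yeast and human cells to stimulate the ATPase of HSP90. It read 1979 and 894 in wild-type controls, 688 and 799 in knockout controls, 17154 and 19867 in heated wild type, and 20679.7 and 21262 in heated knockout. It was already well expressed at 22 °C, and in both temperatures the genotypes did not overlap, with the knockout lower in controls and higher after heat. The fold change was 3.76 ± 0.39 in wild type and 4.77 ± 0.39 in the knockout. AT5G58110, a second protein of AHA1 type, changed by 2.55 and 2.74. The cyclophilins AT2G21130 and AT1G01940, enzymes that turn proline bonds during folding, had 3.68 and 2.99 in wild type and 3.13 and 3.14 in the knockout.

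Ubiquitin tagging and protein breakdown gave 10 members, the largest group with a known role, with medians of 3.64 in wild type and 4.38 in the knockout. AT3G07090, a putative thiol peptidase of the PPPDE family, whose members are linked to removal of ubiquitin-like tags, read 489.8 and 161 in wild-type controls, 260.1 and 216 in knockout controls, 13509 and 21531 in heated wild type, and 27544 and 18899 in heated knockout. The replicates of each heated group differed in opposite directions and the genotypes overlapped. Its fold change was 5.77 ± 0.50 in wild type and 6.42 ± 0.50 in the knockout.

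AT5G18340, which carries a U-box as found in ubiquitin ligases, read 81.3 and 19.5 in wild-type controls, 22.0 and 11.9 in knockout controls, 1681 and 1488 in heated wild type, and 1849 and 2356 in heated knockout. It was below the offset in 3 of 4 controls, and both heated knockout arrays were above both heated wild-type arrays. The fold change was 4.46 ± 0.42 in wild type and 5.53 ± 0.42 in the knockout.

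AT4G15420 is of the UFD1 family, which in yeast works with the CDC48 ATPase to pull ubiquitin-tagged proteins out of complexes. It read 748 and 333 in wild-type controls, 299.7 and 452 in knockout controls, 8631 and 9109 in heated wild type, and 13915 and 19642 in heated knockout. After heat the knockout arrays were both above the wild-type arrays, while the controls overlapped. The fold change was 4.07 ± 0.43 in wild type and 5.38 ± 0.43 in the knockout. AT1G14200, a RING-finger protein of the kind that includes many ubiquitin ligases, read 580.1 and 363 in wild-type controls, 321 and 242 in knockout controls, 6255 and 8098 in heated wild type, and 7921 and 5851 in heated knockout. Its heated levels overlapped between genotypes, with fold changes of 3.87 ± 0.37 and 4.47 ± 0.37.

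The other 3 RING-finger genes of this group were AT5G47610 with 3.73 in wild type and 4.67 in the knockout, AT1G26800 with 3.54 and 4.28, and AT5G58787 with 2.82 and 3.59. DER1, a derlin, part of the channel that moves misfolded proteins out of the endoplasmic reticulum, had 3.29 and 4.22. AT2G41160, a membrane protein with a ubiquitin-binding UBA domain, had 2.90 and 3.45, and SAY1, with a UBX domain that binds CDC48-type ATPases, had 2.98 and 2.97.

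The mitochondrial group held 3 members, with medians of 3.66 in wild type and 3.72 in the knockout. AT5G51740 is a peptidase of the OMA1 family, which cuts proteins of the inner membrane under stress in yeast and mammals. It read 583 and 374 in wild-type controls, 358 and 369.8 in knockout controls, 5503 and 7075 in heated wild type, and 8067 and 8953 in heated knockout. Heated knockout arrays were above heated wild-type arrays and control knockout arrays below control wild-type arrays, with fold changes of 3.66 ± 0.34 and 4.44 ± 0.34. CYTC-2, a cytochrome c of the electron transport chain, read 262 and 364 in wild-type controls, 508 and 336 in knockout controls, 3242 and 5929.7 in heated wild type, and 7445 and 4506 in heated knockout. Both temperatures showed overlap between genotypes, and the fold changes of 3.71 ± 0.43 and 3.72 ± 0.43 were nearly the same. AT4G27680, an AAA ATPase related to yeast Msp1, which removes misplaced proteins from the outer membrane, read 434 and 366 in wild-type controls, 226 and 429.6 in knockout controls, 2357 and 2493 in heated wild type, and 2557 and 3461 in heated knockout. Its fold changes were among the smaller ones, 2.52 ± 0.38 and 3.13 ± 0.38.

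Membranes and lipids gave 7 probe sets of 6 genes, with medians of 3.23 in wild type and 3.30 in the knockout. AT1G67360 is of the rubber elongation factor family, whose plant members coat lipid droplets. It read 309 and 246 in wild-type controls, 318 and 224 in knockout controls, 16119 and 27982 in heated wild type, and 32953 and 23241 in heated knockout. Its controls were tight, it had the highest ratio of all members (46.5), and the genotypes overlapped after heat. The fold change was 6.12 ± 0.39 in wild type and 6.55 ± 0.39 in the knockout, 69.8-fold and 93.5-fold.

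AT1G16040, related to human PIG-F, an enzyme subunit of glycolipid anchor synthesis, is the 1 gene with a pair of probe sets among the members. The brighter one read 99.2 and 88.3 in wild-type controls, 110.0 and 146 in knockout controls, 3654 and 2584 in heated wild type, and 3342 and 3901 in heated knockout. The dimmer one read 124 and 94.6 in wild-type controls, 77.4 and 101 in knockout controls, 627 and 589.7 in heated wild type, and 665 and 666 in heated knockout. Both stepped up in every heated array, but by 4.66 ± 0.33 (wild type) and 4.55 ± 0.33 (knockout) on the brighter and by 2.21 ± 0.30 and 2.56 ± 0.30 on the dimmer, so the size of the change for this gene depends on the probe set.

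TET2, a tetraspanin, a protein that organises patches of the plasma membrane, read 144 and 174 in wild-type controls, 189 and 179.8 in knockout controls, 2489 and 1855 in heated wild type, and 1846 and 2256 in heated knockout. It was one of the few members with a larger change in wild type, 3.54 ± 0.33 against 3.28 ± 0.33, and its heated arrays overlapped. AT5G55050, a GDSL-type lipase, read 145 and 70.0 in wild-type controls, 40.4 and 128 in knockout controls, 1062 and 1369 in heated wild type, and 2094 and 2829 in heated knockout. Both heated knockout arrays were above the heated wild-type arrays, with fold changes of 3.23 ± 0.47 and 4.56 ± 0.47. TIL, a temperature-induced lipocalin that protects membrane lipids, was high in all groups, at 4429 and 3494 in wild-type controls, 4528 and 2404 in knockout controls, 25129 and 34708 in heated wild type, and 43328 and 24835 in heated knockout. Its genotypes overlapped at both temperatures, and it changed by 2.90 ± 0.41 and 3.30 ± 0.41 from the highest control level of any member. AT1G74320, a choline kinase of phosphatidylcholine synthesis, had 2.71 and 3.18.

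RNA handling, translation and transcription gave 4 members, with medians of 3.57 in wild type and 4.32 in the knockout. AT5G12110, a subunit of the translation elongation factor 1B complex, read 321 and 281 in wild-type controls, 154 and 373 in knockout controls, 18155 and 24172 in heated wild type, and 29768 and 21679 in heated knockout. It reached one of the highest heated levels, with overlapping genotypes, and changed by 5.99 ± 0.42 (63.6-fold) in wild type and 6.55 ± 0.42 (93.6-fold) in the knockout. AT1G66510, of the AAR2 family, which in yeast takes part in assembly of the spliceosome's U5 particle, read 157 and 91.7 in wild-type controls, 58.7 and 102 in knockout controls, 3569 and 1254 in heated wild type, and 1347 and 3112 in heated knockout. The replicates of both heated groups were over 1 apart on the log2 scale, in opposite directions, so its fold changes of 3.84 ± 0.58 and 4.28 ± 0.58 are loosely fixed.

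AT5G53680, with an RNA recognition motif, read 30.7 and 44.5 in wild-type controls, 53.7 and 34.2 in knockout controls, 512 and 757 in heated wild type, and 1203 and 1757 in heated knockout. Heated knockout arrays were above heated wild-type arrays without overlap, with changes of 3.30 ± 0.36 and 4.36 ± 0.36. AT5G04840, a bZIP-type transcription factor, read 60.2 and 108 in wild-type controls, 60.0 and 80.7 in knockout controls, 567 and 979.7 in heated wild type, and 881 and 1053 in heated knockout. It lay just inside the limit, with overlap between genotypes and changes of 2.81 ± 0.38 and 3.33 ± 0.38.

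Redox control and stress protection gave 6 members, with medians of 4.08 in wild type and 4.48 in the knockout. AT5G42150, of the glutathione S-transferase family, read 248 and 298 in wild-type controls, 281 and 315 in knockout controls, 5669 and 6813 in heated wild type, and 6808 and 8035 in heated knockout. Its replicates were close in all groups, and it changed by 4.37 ± 0.32 and 4.51 ± 0.32. AT4G15680, a glutaredoxin, read 166 and 454 in wild-type controls, 219.8 and 404 in knockout controls, 5891 and 6459 in heated wild type, and 7961 and 6385 in heated knockout. In both genotypes its second control array was above the first, and it changed by 4.33 ± 0.48 and 4.45 ± 0.48.

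AT2G23110 and AT2G21820 belong to families of late embryogenesis and seed maturation proteins, which protect drying cells. AT2G23110 read 179 and 135 in wild-type controls, 159 and 62.8 in knockout controls, 3584 and 3221 in heated wild type, and 6536 and 3879.5 in heated knockout. AT2G21820 read 157 and 58.8 in wild-type controls, 71.7 and 54.1 in knockout controls, 2020.2 and 1886 in heated wild type, and 2724 and 3414 in heated knockout. For both, the heated knockout arrays were above the heated wild-type arrays, with changes of 4.21 ± 0.44 and 5.27 ± 0.44 for AT2G23110 and of 3.96 ± 0.40 and 5.07 ± 0.40 for AT2G21820. AT3G03270, a universal stress protein, had 3.64 and 3.79. AT5G61510, of the quinone oxidoreductase family, had 2.55 and 2.95.

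Signalling and defence gave 3 members, all with low control signals, with medians of 3.09 in wild type and 3.73 in the knockout. AT3G62260, a protein phosphatase of type 2C, a class that damps kinase signalling, read 111 and 77.6 in wild-type controls, 60.8 and 108 in knockout controls, 608 and 2041 in heated wild type, and 1333 and 2023 in heated knockout. The first heated wild-type array stood well below the second, and the fold changes were 3.23 ± 0.55 and 3.91 ± 0.55. AT1G58170, of the dirigent family of lignan synthesis, read 18.7 and 46.7 in wild-type controls, 27.0 and 40.7 in knockout controls, 302 and 764 in heated wild type, and 731 and 876 in heated knockout. Again the first heated wild-type array was the lowest, with changes of 3.09 ± 0.46 and 3.73 ± 0.46. AT2G32140, with a TIR domain as in plant immune receptors, read 19.1 and 19.3 in wild-type controls, 7.6 and 1.7 in knockout controls, 325 and 172 in heated wild type, and 226 and 351 in heated knockout. All its controls were below the offset, and it changed by 2.47 ± 0.40 and 3.22 ± 0.40 to the lowest heated level of any member.

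No role was given to 17 members, with medians of 3.74 in wild type and 4.49 in the knockout, and some of them were among the largest changes. AT4G23493 read 108 and 48.8 in wild-type controls, 64.8 and 10.2 in knockout controls, 5647 and 6979 in heated wild type, and 12979 and 7038 in heated knockout. It had a ratio of 41.4 and changed by 5.93 ± 0.52 (61.1-fold) in wild type and 7.30 ± 0.52 (158-fold) in the knockout, with both heated knockout arrays above both heated wild-type arrays. AT3G07150 read 79.1 and 73.2 in wild-type controls, 79.9 and 61.7 in knockout controls, 3105 and 3028 in heated wild type, and 3761 and 4929.8 in heated knockout. Its replicates lay close together and its changes were 4.88 ± 0.32 and 5.45 ± 0.32. AT5G19875 read 192 and 173 in wild-type controls, 211 and 136 in knockout controls, 4678 and 6244 in heated wild type, and 7130.1 and 5180.2 in heated knockout. It overlapped between genotypes, with changes of 4.68 ± 0.36 and 4.94 ± 0.36. AT5G35320 read 488 and 316 in wild-type controls, 403 and 259 in knockout controls, 9578 and 18857 in heated wild type, and 25534 and 16348 in heated knockout. Its genotypes overlapped too, with changes of 5.0 ± 0.45 and 5.86 ± 0.45.

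Of the other 13 without a role, AT1G44414 had the largest change, 5.42 in wild type and 5.59 in the knockout. AT4G17250 had 4.08 and 4.75, AT4G33660 had 3.77 and 4.69, AT3G17110 had 3.77 and 4.0, and AT4G02550 had 3.74 and 4.91. AT3G17110 is listed by RefSeq as a transcribed pseudogene. AT1G31335 had 3.74 and 3.91, AT5G47830 had 3.57 and 4.49, AT4G09150 had 3.51 and 3.67, and AT5G11680 had 3.49 and 3.89. The smallest were AT1G23180 with 3.40 and 3.55, AT1G02700 with 3.30 and 4.12, AT5G35460 with 3.07 and 3.78, and AT4G23885 with 2.96 and 2.90.

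Across the 57 members the heat fold change in the knockout followed that in wild type, with Pearson's r of 0.934 and Spearman's rho of 0.898 over probe sets, which share the same arrays and are not independent. Over all probe sets tested r was 0.907. A member's mean control level was only weakly related to its mean heat change over both genotypes, with r of -0.279 and rho of -0.255, and the control level enters both measures.

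**Figure D3:**
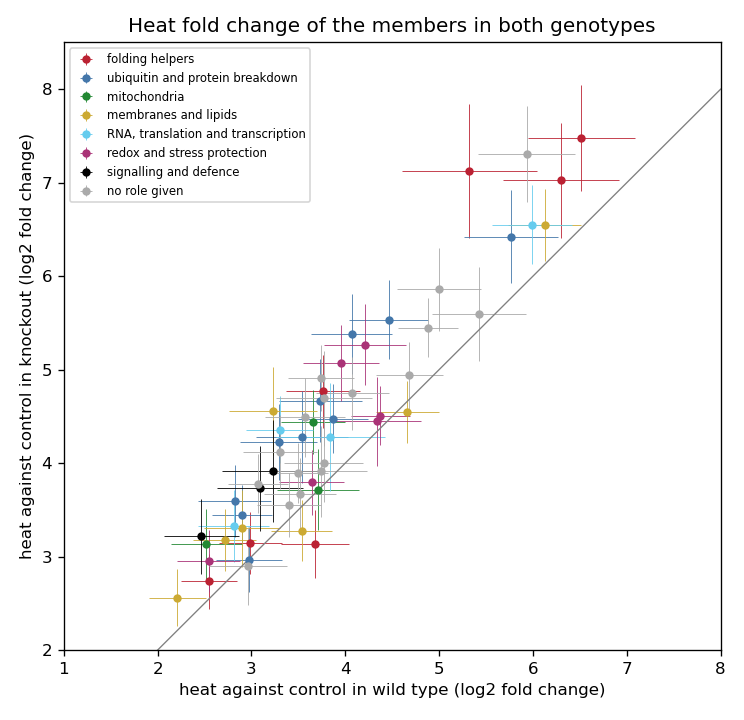
Each point is 1 member, with the heat fold change in wild type on the x axis and in the knockout on the y axis, both log2, bars of 1 SE and colours for the groups by function. The line marks equal change, and 52 of 57 points lie above it.

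Members were not equally spread over the replicates. In wild-type controls replicate 1 was above replicate 2 for 41 of 57 members (71.9%, against 52% of all probe sets tested), and in heated wild type for 20 (35.1% against 52.1%). In the knockout the numbers were 31 in controls (54.4% against 40%) and 25 after heat (43.9% against 44.4%). So the first wild-type control array tended to the high side and the first heated wild-type array to the low side. The gap between replicates was over 1 on the log2 scale for 11 members among wild-type controls and 5 after heat, and for 5 among knockout controls and 3 after heat. These were 19.3%, 8.77%, 8.77% and 5.26% of the members, against 11.8%, 26.3%, 7.26% and 8.98% of all probe sets tested.

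The first wild-type arrays therefore set the ratio of many members. The lowest heated array was a wild-type array for 49 of 57 members, replicate 1 for 33 of them and replicate 2 for 16. The highest control array was wild-type replicate 1 for 31 members and replicate 2 for 6. Relative to the mean of the 4 arrays of its temperature, the median member was at 0.27 on the first wild-type control array and at -0.27 on the first heated wild-type array. On the other 6 arrays the median was between -0.16 and 0.19.

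**Figure D4:**
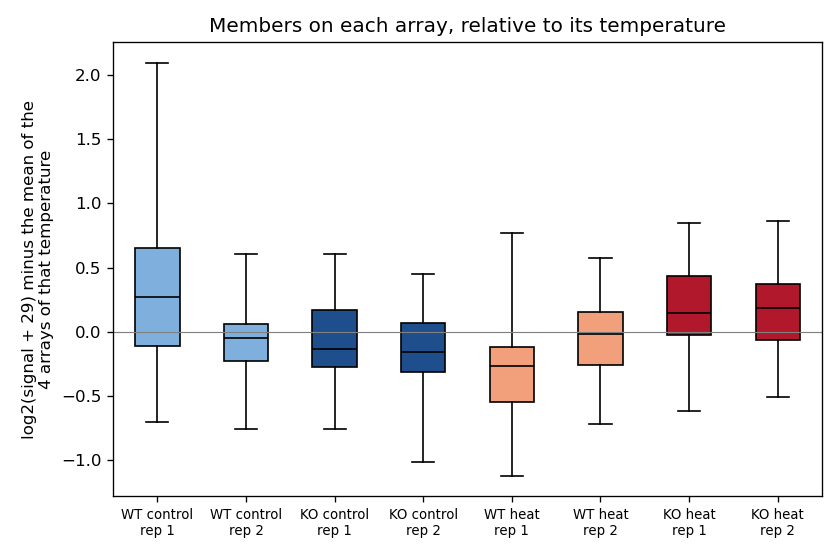
Boxes show the 57 members on each array as log2(signal + 29) minus the mean of the 4 arrays of the same temperature (line: median, box: middle 50%, whiskers: lowest and highest). By its median the first wild-type array is highest among controls and lowest among heated arrays, and both heated knockout arrays have medians above 0.

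The genotypes were then compared in the members, at either temperature and in the size of the heat change. The choice of the members is not independent of these contrasts: each had to be at least 4 times higher after heat across both genotypes, so a gene whose heat change is lost in 1 genotype, such as HSA32 with a ratio of 0.319, could not be a member. The counts below therefore hold only for genes induced in both. The limma fit over 15919 probe sets called none after Benjamini-Hochberg adjustment in any of these contrasts. That is 0% for the interaction, 0% for knockout against wild type at 22 °C and 0% for knockout against wild type after heat. At an unadjusted p below 0.05 there were 88 probe sets (0.553%) for the interaction, 82 (0.515%) at 22 °C and 280 (1.76%) after heat. Among the 57 members 1 reached this for the interaction (1.75%), 0 at 22 °C and 2 after heat (3.51%), and all their adjusted p were 1. All of these shares lie below the share of 0.05 that p-values would give with no difference at all. The test was thus cautious, and counts of 0 do not show that the genotypes are alike. The fit had no term for replicate number, though deviations of same-numbered arrays correlated at 0.542 within wild type and 0.525 within the knockout. Why the shares were low was not tested.

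The direction of these differences was uneven, though no member passed. The interaction, the heat change in the knockout minus that in wild type, had a median of 0.60 over the members (-0.54 to 1.80) and was above 0 for 52 of 57, or 91.2%. Over all probe sets tested 49.2% were above 0. The other probe sets past the limit also lay mostly above 0, with 23 of the 26 left out by name or locus (88.5%, median 0.69) and 80 of the 84 without a single gene (95.2%, median 0.55). After heat the knockout was above wild type for 49 members (86.0% against 48.3% of all), with a median difference of 0.34. At 22 °C it was above wild type for 13 (22.8% against 49.8%), with a median difference of -0.24. The members are not independent of each other, and they share the arrays of both genotypes that enter these differences. With both of the first wild-type arrays left out, the median interaction was 0.28 with 44 of 57 above 0. The median difference after heat was then 0.17 with 43 above 0, and the median at 22 °C -0.07 with 21 above 0. This pair had the highest control and the lowest heated median of the members, so a lower interaction without it follows from those medians. No other pair was left out. Without the second wild-type control array alone the median interaction was 0.75, with 48 above 0. Without the second heated wild-type array alone it was 0.76, with 49 above 0. The part of the first wild-type arrays in the shift beyond those values was not tested.

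In every group by function the median interaction was above 0. It was 0.76 for ubiquitin and protein breakdown (9 of 10 above 0), 0.73 for folding helpers (6 of 7), 0.68 for signalling and defence (3 of 3), 0.61 for mitochondria (3 of 3), 0.57 for those with no role given (16 of 17), 0.54 for RNA, translation and transcription (4 of 4), 0.40 for membranes and lipids (5 of 7) and 0.28 for redox and stress protection (6 of 6). The SE of a single member's interaction was 0.42 to 1.0 with a median of 0.56, and 28 members (49.1%) differed from 0 by more than their own SE, against 15% of all probe sets tested and 13 of the 26 left out by name or locus. Members and left-out probe sets passed the same limit on the same arrays, so a shift of those arrays moves many of them together. The counts in this paragraph are a description and carry no test.

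AT4G02550 had the smallest interaction p of the members. It read 143 and 121 in wild-type controls, 112 and 145 in knockout controls, 1649 and 2696 in heated wild type, and 4480.0 and 4922 in heated knockout. The controls were alike and the heated groups did not overlap. Its interaction was 1.18 ± 0.50 (limma, unadjusted p = 0.044, adjusted p = 1), and after heat the knockout was higher by 1.14 ± 0.35 (limma, unadjusted p = 0.010, adjusted p = 1). AT4G15420, the UFD1-type gene, had an interaction of 1.31 ± 0.61 (limma, unadjusted p = 0.060, adjusted p = 1). AT5G53680, the RNA-binding gene, had 1.06 ± 0.51 (limma, unadjusted p = 0.067, adjusted p = 1) and was higher in the heated knockout by 1.19 ± 0.36 (limma, unadjusted p = 0.0094, adjusted p = 1). AT5G55050, the GDSL lipase, had 1.33 ± 0.66 (limma, unadjusted p = 0.077, adjusted p = 1).

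The change was larger in wild type for 5 members. AT2G21130, the cyclophilin, read 195.6 and 193.8 in wild-type controls, 343.5 and 227 in knockout controls, 3579 and 2244 in heated wild type, and 2689 and 2678.5 in heated knockout. Its control arrays were lower in wild type without overlap and its heated arrays overlapped, with an interaction of -0.54 ± 0.51 (limma, unadjusted p = 0.32, adjusted p = 1). TET2 had -0.26 ± 0.46 (limma, unadjusted p = 0.59, adjusted p = 1), AT1G16040 on its brighter probe set -0.11 ± 0.47 (limma, unadjusted p = 0.81, adjusted p = 1) and AT4G23885 -0.06 ± 0.59 (limma, unadjusted p = 0.92, adjusted p = 1). SAY1 was at -0.01. With 2 arrays a group, none of these 5 differences had a limma p below 0.05, adjusted or not.

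**Figure D5:**
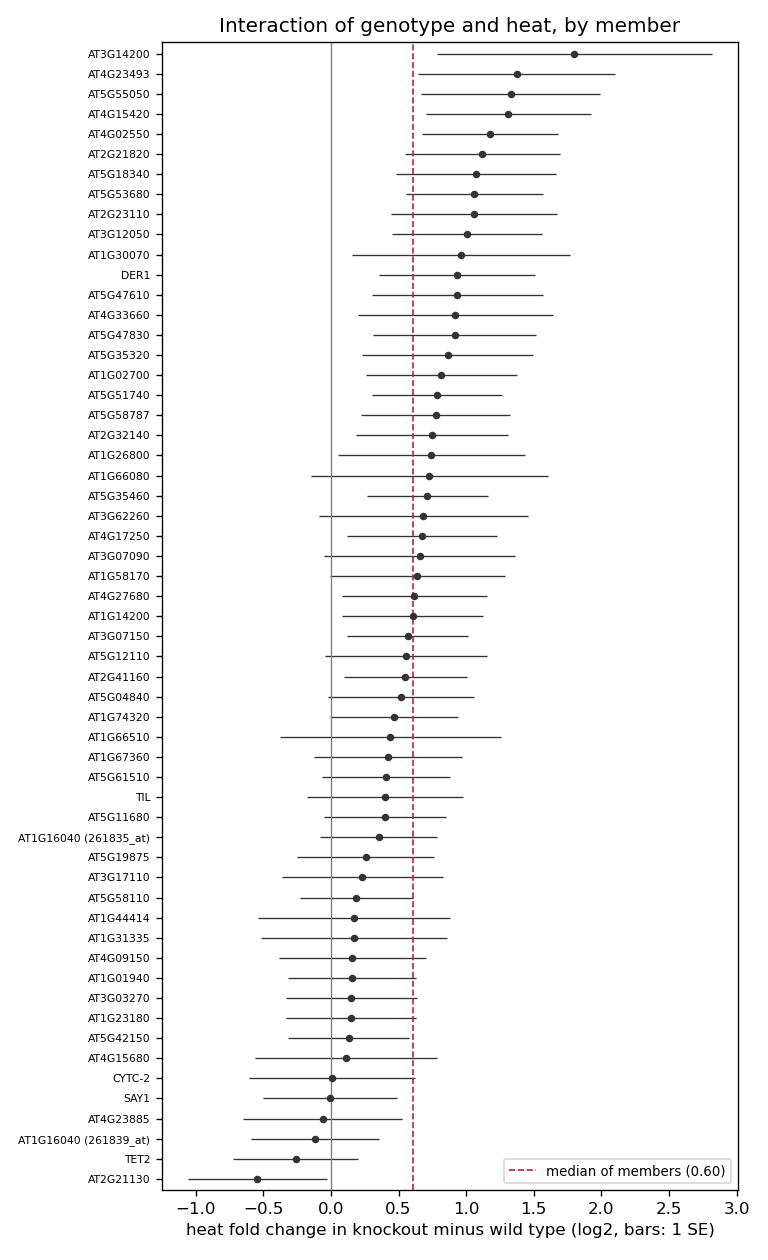
Points give, for each of the 57 members, the log2 heat change in the knockout minus that in wild type, with bars of 1 SE, ordered by value. Values run from -0.54 for AT2G21130 to 1.80 for AT3G14200, the dashed line marks their median of 0.60, and bars of many members cross 0.

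Genes of the same pathways that are not members were looked up in lists of known genes. Of these, 20 tested genes had a probe set of their own, and 2 of the 20 were left out of the members by name. The count of list genes that rose was 5 in wild type and 4 in the knockout, 0 fell, and 0 differed in the interaction (limma, adjusted p below 0.05 over all probe sets). Over all probe sets tested 1.84% rose in wild type and 3.13% in the knockout, while 0.71% and 3.66% fell. At an unadjusted p below 0.05, 1 list gene was lower in wild type (AT3G29310), 0 in the knockout, and 1 differed in the interaction (HSA32). AT1G54050 and AT2G29500, small heat shock proteins of the left-out families, rose by 6.31 and 8.10 in wild type and 7.02 and 8.74 in the knockout. Both had met the limit on heated against control signals, so their rise was fixed by that choice. HSA32 rose by 5.12 in wild type and had -1.27 in the knockout (limma, adjusted p = 0.22). BZIP28, a transcription factor that reports unfolded proteins in the endoplasmic reticulum, rose by 1.82 (limma, adjusted p = 0.042) and 2.41 (limma, adjusted p = 0.0074). COR47, a dehydrin, rose by 1.85 (limma, adjusted p = 0.025) and 1.5 (limma, adjusted p = 0.036).

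Counts of 5 and 4 rest on few arrays. The wild-type count was 3 without the first wild-type control array, without either knockout control array or without either heated knockout array, and the knockout count was 2 without the first knockout control or the second heated knockout array. Not counting the small heat shock proteins left 3 and 2.

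In the ubiquitin and proteasome list 5 of 19 genes were tested and 0 passed (0 also at an unadjusted p below 0.05), with median changes of -0.02 in wild type and -0.14 in the knockout. In the list for protein folding in the endoplasmic reticulum 6 of 15 were tested and BZIP28 was the 1 that passed, with medians of -0.07 and 0.14. Of 14 genes against reactive oxygen, SAPX and TAPX, chloroplast ascorbate peroxidases, were tested, and with -0.51 and 0.12 in wild type and -0.80 and 0.31 in the knockout neither passed. The dehydration and abscisic acid list held COR47 and COR15A, the latter with 0.29 and 0.09, of 14 genes. The BAG co-chaperone AT3G29310 had -1.19 and -0.20, and the heat-response gene AT4G13550 had 1.79 (limma, adjusted p = 0.21) and 2.45 (limma, adjusted p = 0.061). No heat shock factor of 20, no gene of 12 for galactinol and raffinose synthesis and no SR splicing factor of 19 had a probe set listed with 1 gene, so these were not analysed here.

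Members near each other on the chromosome, or near known heat genes, were counted from the gene order of the TAIR10.1 assembly. Within 5 protein-coding places, AT1G74320 lies next to AT1G74310, the gene of the chaperone HSP101, and AT4G27680 next to AT4G27670, the gene of chloroplast HSP21. TIL and AT5G58110 are 4 places apart. In this window 4 of 55 members with a place (7.27%) had another gene past the limit or a listed heat response gene, against 385 of 8423 tested genes (4.57%). No probe set listed with 1 gene reads AT1G74310 or AT4G27670, so the levels of these neighbours are not given. The median annotated gene length was 1866 bases for the members and 2269 bases for all tested genes.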

How the data were processed

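RNA from 8 shoot pools was hybridised to 1-colour ATH1 arrays. The values are intensities as deposited by the authors, 1 per probe set, on a linear scale with equal trimmed means. How they were computed from the scans is not stated in the labels, and equal trimmed means fix only the bulk of the signals.

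From these intensities log2(signal + 29) was computed, 29 being close to the 20th percentile of all values (29.1). The dimmest 30% of probe sets (mean signal up to 61.7) were left out, leaving 15919, all 57 members among them. Because that mean includes the heated arrays, passing it shows nothing about the members. limma 3.58.1 (R 4.3.3) fitted 1 mean a group over all 8 arrays, with 4 residual degrees of freedom and a variance trend, and p-values were adjusted with Benjamini-Hochberg over all probe sets tested. The 2 replicates a group are separate pools of plants per the labels. The fit was run on simulated data with independent noise on each array, to check that its estimates returned planted interactions. Deviations shared between arrays were not simulated, so this does not test the p-values in these data.

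Genes were named from the platform annotation and the RefSeq gene table (TAIR10.1, 77 gene numbers not found); protein families and roles are background knowledge, as were the names used to leave out 11 genes listed only by locus. Members and lists were chosen with earlier results of these data known. All members were named. The 4 with the highest ratio in each group by function, the 4 with the smallest interaction p in each direction and those nearest the limit were given values. No coordinates are printed, since no source used here gives the build behind the annotation. Promoter sequences were not used here.

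Alternatives were other offsets (8 and 100), filters, normalizations, a replicate block, no variance trend and each array left out. Added after seeing the data were a crossed block, AT4G28480 kept, AT3G14200 left out, other sets of left-out names, and list counts without genes left out by name.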

Additional observations from a re-analysis of the deposited data

Results flagged for a closer look

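Of the 167 probe sets past the 4-fold limit, 84 were in the fit but not among the members, because the annotation lists several genes (5) or none (79) for them. Their ratios ran from 4.01 to 532 with a median of 9.97, and their median heat change was 4.17 in wild type and 4.75 in the knockout on the log2 scale. They are signals outside the described genes and are not named here.

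HSA32 differed between the genotypes in the direction of its heat change, with an interaction of -6.39 ± 0.80 on the log2 scale (limma, unadjusted p = 2.6e-05, adjusted p = 0.42). Both heated wild-type arrays were above both of their controls, and both heated knockout arrays were below theirs. The interaction itself did not pass adjustment over all probe sets.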

How the results depend on the processing

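Counts of members called for the genotype contrasts and the interaction were 0 under all 18 alternatives of each. The limit found 57 members and 48 to 95 under its alternatives. Leaving out arrays can only keep or raise this count, since the limit uses the lowest heated and the highest control signal. It gave 57 to 95, the highest when both of the first wild-type arrays were left out. No other pair of arrays was left out together. The median wild-type heat change of 3.68 was 4.08 without that pair (3.45 to 4.08 when arrays were left out). The median knockout change of 4.28 was 4.56 with an offset of 8, 3.82 with an offset of 100 and 4.63 with median centring, which moved the median of all probe sets from -0.22 to 0.05 in wild type, and ran from 4.14 to 4.36 when arrays were left out. The median interaction of 0.60 was 0.28 without the same pair (0.28 to 0.76 when arrays were left out). List genes that rose in wild type were 3 in place of 5 with no filter, with the replicate block and with genes left out by name not counted (3 to 5 when arrays were left out). In the knockout they were 2 in place of 4 without those names (2 to 5 when arrays were left out). The cause of these moves was not tested. Replicate numbers did not pair the samples between genotypes. Deviations of same-numbered arrays correlated at 0.542 within wild type and 0.525 within the knockout, but from -0.389 to -0.24 between genotypes. With the knockout numbers exchanged, 1 probe set was called in the interaction, 1 after heat and 0 at 22 °C, and 0 were members. With 2 pools a group, the SE of a single member's interaction was 0.42 to 1.0, which limits the differences that could be called.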
